A study of Mus musculus with 8 samples.

Results

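The mRNAs of 10 genes that govern passage through G1 were followed in *iMLL-AF9* mouse leukemic cells treated with IOX5, a selective inhibitor of the HIF prolyl hydroxylases (PHDs), or with DMSO, the solvent that served as the vehicle. The genes were the D cyclins *Ccnd1*, *Ccnd2* and *Ccnd3*, the E cyclins *Ccne1* and *Ccne2*, the kinases *Cdk4* and *Cdk6*, and the inhibitors *Cdkn1b*, *Cdkn2c* and *Cdkn2d*. They were taken by gene symbol out of 54838 genes listed, and all 10 passed the filter on low counts, as did 12405 genes in total. RNA was sequenced from 4 DMSO and 4 IOX5 samples, numbered 1 to 4 in each group. All 8 came from bone marrow cells with a doxycycline-inducible *MLL-AF9* allele and a genotype otherwise labeled WT. The labels call them leukemic stem cells, the methods leukemic and the description of the data set preleukemic. For these samples no source gives the number or age of the animals, how much IOX5 was used or for how long, or what a replicate number marks, so that the spread between replicates may be technical.

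The reads counted on genes numbered between 12343770 and 14116054 in the DMSO libraries and between 11351507 and 12708888 in the IOX5 libraries. Within each group numbers 3 and 4 were the closest libraries, with a chi-square per degree of freedom of 2.16 in DMSO and 9.17 in IOX5. Other pairs of numbers ran from 13.9 to 22.6 in DMSO and from 18.2 to 40.9 in IOX5. Whether numbers 3 and 4 are independent replicates is not stated. Libraries with the same replicate number deviated together from their group means across all genes (r between 0.636 and 0.758). Number 4 had the weakest match, and correlated at up to 0.685 with a different number. Each comparison is given without a term for the number, as the study's methods name none. Where a block on the number (the pairing) changed a call, that fit is given too. The HIF-responsive genes *Pdk1* and *Ankrd37* were higher with IOX5 in 4 of 4 pairs (adjusted p = 0.0157 and 0.0143 by edgeR), and both calls were lost when DMSO replicate 3, DMSO replicate 4 or IOX5 replicate 3 was left out. *Egln3*, the third gene of that check, was higher in 4 of 4 pairs and was called only with the block (adjusted p = 0.136 without it by edgeR). Of 7 markers fixed for leukemic progenitors, all were detected and 0 were called without the block, while 3 (*Kit*, *Cd34*, *Itgam*) were higher with it. With the block, 11.2% of all genes tested were called higher. Of the B-cell markers, *Ms4a1* was at 0 in every library and *Cd79b* at between 2.86 and 8.40 CPM, and the summed T-cell markers stayed at or under 0.162 CPM.

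In G1, a D cyclin binds CDK4 or CDK6, and the complex phosphorylates the retinoblastoma protein RB. Phosphorylated RB releases E2F transcription factors, which switch on genes for DNA synthesis, the E cyclins among them, and cyclin E with CDK2 then drives entry into S phase. The INK4 proteins p18 (*Cdkn2c*) and p19 (*Cdkn2d*) block CDK4 and CDK6, whereas p27 (*Cdkn1b*) binds cyclin-CDK complexes more widely and restrains cyclin E-CDK2. In acute myeloid leukemia with *MLL* fusions, CDK6 is a known dependency.

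Because 3 members were lower with the pairing, and HIF and E2F are factors whose sites can lie near gene starts, the sequences before the starts of *Ccne1* and *Cdkn2d* are shown, with *Cdk4*, which held the most matches and was not called, for contrast. RefSeq gave 9 windows (GRCm38.p6) for 7 members, each from 250 bases before to 50 bases after the start. The set of windows used held no entry for *Ccnd1*, *Ccnd2* and *Ccne2*, so the called member *Ccne2* could not be searched. The stretches printed run 5′ to 3′ on the gene's strand and stop before the annotated gene, and capitals mark ACGTG or GCGTG, the core words of HIF response elements, on either strand. They are chr7:38107535-38107740 on the minus strand for *Ccne1*, chr9:21291408-21291459 on the minus strand for *Cdkn2d* and chr10:127063285-127063533 on the plus strand for *Cdk4*.
Ccne1: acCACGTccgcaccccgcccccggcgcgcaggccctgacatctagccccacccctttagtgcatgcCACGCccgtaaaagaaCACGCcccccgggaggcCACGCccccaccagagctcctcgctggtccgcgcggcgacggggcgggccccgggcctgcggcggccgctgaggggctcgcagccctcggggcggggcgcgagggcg
Cdkn2d: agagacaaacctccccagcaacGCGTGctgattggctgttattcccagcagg
Cdk4: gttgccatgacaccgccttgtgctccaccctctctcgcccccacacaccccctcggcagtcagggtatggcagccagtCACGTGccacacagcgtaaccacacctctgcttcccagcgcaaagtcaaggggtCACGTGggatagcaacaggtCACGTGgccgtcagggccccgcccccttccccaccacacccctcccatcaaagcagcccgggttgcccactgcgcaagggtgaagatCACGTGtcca
At least 1 HIF core word stood in 8 of the 9 member windows, and in 43.8% of all 32851 windows of the same length. *Ccne1* held 4 and *Cdkn2d* held 1. In *Cdk4* the 8 matches are 4 palindromes CACGTG, an E-box that holds ACGTG on each strand, at positions -172, -118, -98 and -11 from the start. An E-box stood in 7.15% of all windows, and 8 windows, or 0.0244%, held 4 or more. The E2F words TTTCCCGC, TTTCGCGC, TTTGCCGC and TTTGGCGC, searched on both strands, were in 0 of the 9 windows and in 2.26% of all windows. These searches were chosen after the expression values were known and are a description of the letters in these windows.

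Without the block, 0 of the 10 members passed an adjusted p of 0.05 by edgeR, against 0.774% of all genes tested called higher and 1.25% called lower. Those shares rested on single libraries, as leaving out DMSO replicate 3, DMSO replicate 4 or IOX5 replicate 3 left 0 genes called. At an unadjusted p under 0.05, 4 members were lower (*Ccne1*, *Ccne2*, *Cdk6* and *Cdkn2d*) and 0 higher, where 11.2% of all genes were lower and 8.98% higher. DESeq2 and limma's voom, which was run with sample weights, also gave 4 members at an unadjusted p under 0.05. All were lower, where 10.3% and 14.4% of all genes were lower. DESeq2 called 1 of them after adjustment, *Ccne2*, as it called 4.85% of all genes lower. It gave *Ccnd1* no adjusted p in this fit. DESeq2 shares of all genes called after adjustment count genes without an adjusted p as not called. With the replicate block, edgeR called 3 members lower (*Ccne1*, *Ccne2* and *Cdkn2d*) and 0 higher, where 9.43% of all genes were called lower and 11.2% higher. DESeq2 with the block called *Ccne1* and *Cdkn2d* lower, with 6.26% of all genes lower. The log2 fold change was negative for 8 members and positive for 2, with a median of -0.093, beside a median of 0.017 over all genes tested, of which 47.2% were negative. Expression is given as CPM, the count scaled to a common library size with TMM factors, and fold changes on the log2 scale as IOX5 over DMSO, with the standard error (SE) of the fit. In bulk RNA, less mRNA per cell cannot be told apart from fewer cells that express the gene.

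**Figure D1:**
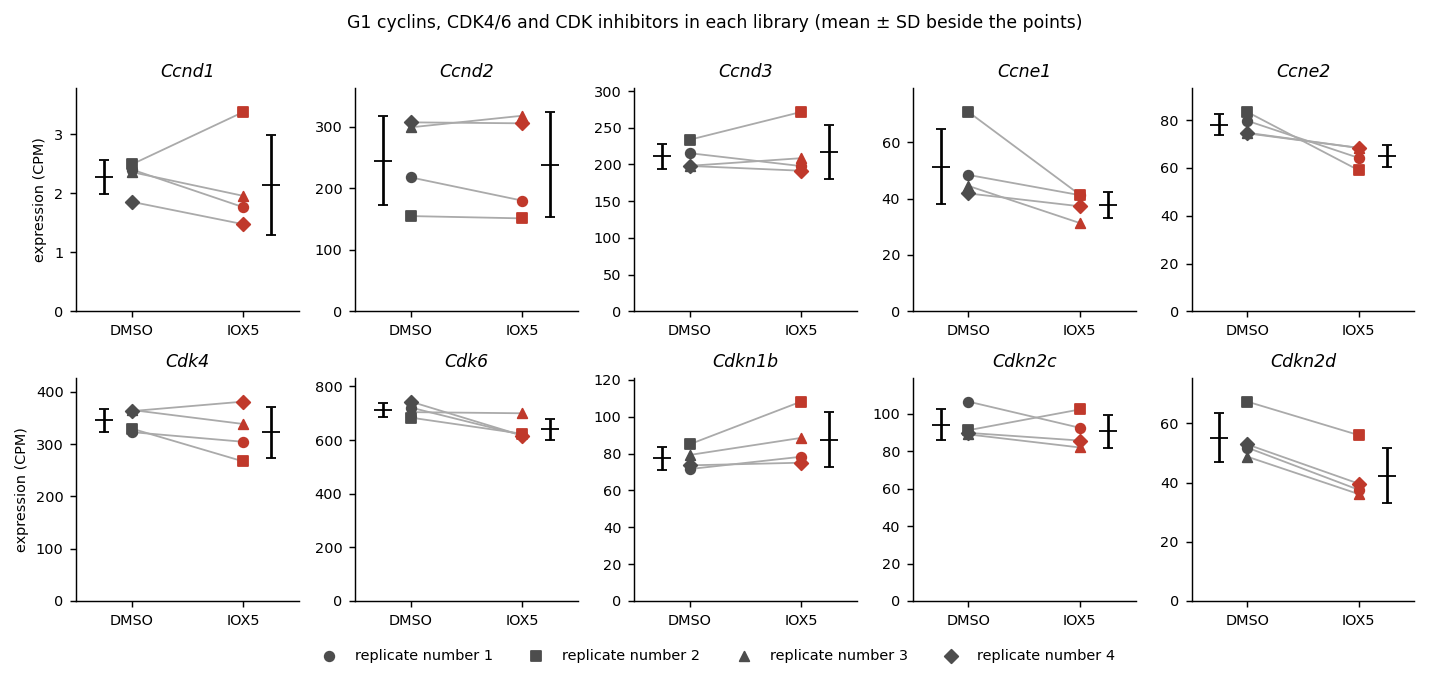
Expression of each member in CPM (y axis, from 0) in the 4 DMSO and 4 IOX5 libraries (x axis). Lines join libraries with the same replicate number, symbols mark the number, and the bars beside the points are the mean ± SD. The groups do not overlap for *Ccne1* and *Ccne2*, and all 4 lines fall for *Ccne1*, *Ccne2*, *Cdk6* and *Cdkn2d*. For *Cdk6* the line of number 3 is almost level, from 704 to 699.8 CPM.

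**Figure D2:**
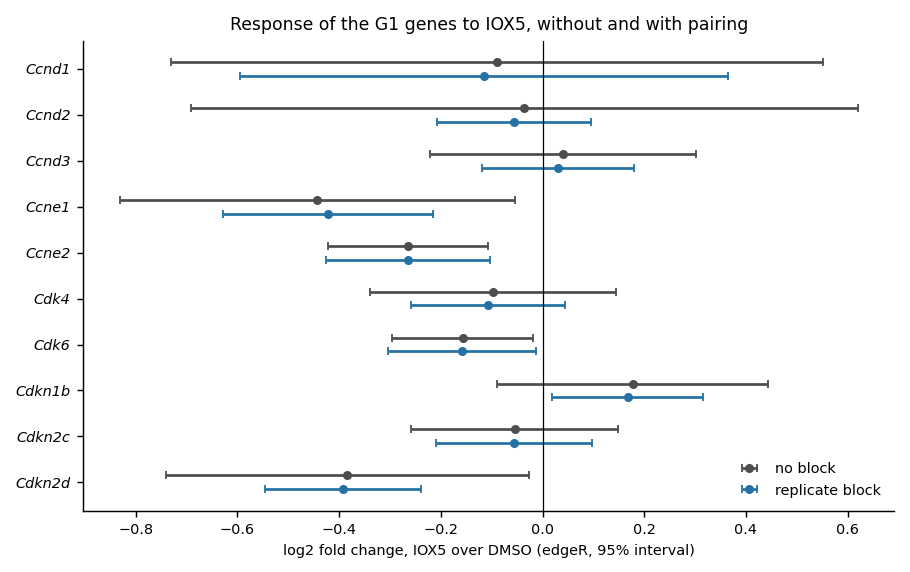
Log2 fold change of each member, IOX5 over DMSO (x axis), by edgeR without (gray) and with (blue) the replicate block. Points are estimates and bars are 95% intervals. The interval of *Ccnd2* narrows most in absolute width, from between -0.69 and 0.62 to between -0.21 and 0.095, and stays across 0.

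The E cyclins were the only members whose IOX5 libraries all lay below all of their DMSO libraries, a pattern that 8.3% of all genes tested showed in this direction. *Ccne1* encodes cyclin E1, a partner of CDK2 (ENSMUSG00000002068, chr7:38097984-38107534, minus strand). It was measured at 48.4, 70.8, 44.5 and 41.8 CPM in DMSO replicates 1 to 4 and at 41.2, 41.4, 31.3 and 37.3 CPM in IOX5 replicates 1 to 4. DMSO replicate 2 was the highest of the 8, and the highest IOX5 library came within 1 CPM of the lowest DMSO library. The mean was 51.4 ± 13.2 CPM (SD, n = 4) with DMSO and 37.8 ± 4.71 CPM (SD, n = 4) with IOX5. The log2 fold change was -0.44 (SE 0.171, edgeR adjusted p = 0.196), and with the block it was -0.42 (SE 0.096, edgeR adjusted p = 0.00825). Without DMSO replicate 2 the unblocked value was -0.25. Within replicate numbers 1 to 4 the log2 difference was -0.23, -0.77, -0.50 and -0.17. Without number 3 the blocked call was lost (adjusted p = 0.0572 by edgeR), and it held without each of the other numbers.

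*Ccne2* encodes cyclin E2, which acts on the same kinase (ENSMUSG00000028212, chr4:11191351-11204779, plus strand). It stood at 79.8, 83.5, 74.5 and 74.7 CPM in DMSO replicates 1 to 4 and at 64.2, 59.1, 68.4 and 68.4 CPM in the IOX5 replicates. Libraries of a group lay close together, with the largest difference between groups at replicate number 2. The mean was 78.1 ± 4.31 CPM (SD, n = 4) with DMSO and 65.0 ± 4.44 CPM (SD, n = 4) with IOX5. The change on the log2 scale was -0.26 (SE 0.069, edgeR adjusted p = 0.0816). With the block the value was the same to 2 decimals (SE 0.075) and the adjusted p was 0.0246 by edgeR, while DESeq2 gave 0.0256 without and 0.0576 with the block. The blocked call was the least steady of the 3: with a single replicate number left out it held only without number 4 (adjusted p = 0.0229 by edgeR), and was between 0.0572 and 0.0965 without number 1, 2 or 3. Its exons share 609 bases with *Ints8* on the opposite strand, which had a log2 fold change of -0.18 (edgeR adjusted p = 0.154 without and 0.0702 with the block). The strand setting of the counting is not stated. Over the 8 libraries, 105071 reads were counted on *Xist* and 21 on its antisense partner *Tsix*. These counts do not show how reads in the bases shared with *Ints8* were assigned, as reads that match both genes may have been left out.

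Added per kilobase of exon, the E cyclins came to between 37.1 and 50.5 CPM per kb in the DMSO libraries and between 31.3 and 33.9 CPM per kb in the IOX5 libraries. The share of *Ccne1* in that sum was 45.8% ± 4.64 (SD, n = 4) with DMSO and 43.2% ± 4.57 (SD, n = 4) with IOX5. The log2 ratio of *Ccne1* to *Ccne2* differed by -0.15 between the groups, less than the SD of 0.27 in each (exact two-sided permutation test over 70 assignments, p = 0.486, adjusted over 6 ratios 0.914).

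*Cdkn2d* encodes p19, an INK4 inhibitor of CDK4 and CDK6 (ENSMUSG00000096472, chr9:21288410-21291407, minus strand). The libraries held 51.8, 67.4, 48.7 and 52.9 CPM in DMSO replicates 1 to 4 and 37.6, 56.0, 36.1 and 39.6 CPM in IOX5 replicates 1 to 4. Replicate number 2 was the highest of both groups, and IOX5 replicate 2 lay within the DMSO range while the other IOX5 libraries lay below it. The mean was 55.2 ± 8.29 CPM (SD, n = 4) with DMSO and 42.3 ± 9.25 CPM (SD, n = 4) with IOX5. Without the block the log2 fold change was -0.38 (SE 0.157, edgeR adjusted p = 0.217). Within numbers 1 to 4 the differences were -0.46, -0.26, -0.43 and -0.41, and the blocked estimate was -0.39 (SE 0.071, edgeR adjusted p = 0.00225). This call held without each replicate number in turn, with adjusted p between 0.000231 and 0.0267 by edgeR, as it did in DESeq2 with the block (0.00212).

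The other INK4 member, *Cdkn2c*, encodes p18 (ENSMUSG00000028551, chr4:109660876-109667189, minus strand). It was at 107, 91.3, 89.0 and 89.9 CPM in DMSO and at 92.6, 102, 82.1 and 85.8 CPM in IOX5 replicates 1 to 4. The groups overlapped and 3 of the 4 pairs were lower, with a log2 fold change of -0.055 (SE 0.090, edgeR adjusted p = 0.774). Within libraries the log2 ratio of *Cdkn2c* to *Cdkn2d* was 0.78 ± 0.25 (SD, n = 4) with DMSO and 1.11 ± 0.18 (SD, n = 4) with IOX5. That difference of 0.34 had an exact two-sided permutation p of 0.0571, or 0.343 adjusted over the 6 ratios, where the smallest p that 70 assignments allow is 0.0286. That test does not use the pairing, and within replicate numbers 1 to 4 the difference was 0.26, 0.43, 0.31 and 0.35.

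*Cdkn1b* encodes p27, a CDK inhibitor of the Cip/Kip family (ENSMUSG00000003031, chr6:134920401-134925513, plus strand), and was the only member higher in all 4 pairs. It was at 71.6, 85.0, 79.2 and 73.6 CPM in DMSO and at 78.2, 108, 88.5 and 75.0 CPM in IOX5 replicates 1 to 4, so that the groups overlapped. The log2 fold change was 0.18 (SE 0.118, edgeR adjusted p = 0.441), and 0.17 (SE 0.069, edgeR adjusted p = 0.100) with the block. The pair differences ran from 0.028 for number 4 to 0.35 for number 2, and without IOX5 replicate 2 the unblocked value was 0.060. Of the summed level of the 3 inhibitors per kilobase, *Cdkn1b* made up 19.5% ± 1.45 (SD, n = 4) with DMSO and 24.0% ± 1.94 (SD, n = 4) with IOX5, whereas *Cdkn2d* made up 40.1% ± 3.41 (SD, n = 4) and 33.4% ± 2.41 (SD, n = 4). The share of *Cdkn1b* lay between 17.8% and 21.3% in the DMSO libraries and between 22.4% and 26.7% in the IOX5 libraries. That share also moves with *Cdkn2d* in the sum, at 35.1 CPM per kb with DMSO and 26.9 with IOX5. It is not a measure of *Cdkn1b* alone, and was not tested.

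*Cdk6* was the kinase that was lower in all 4 pairs (ENSMUSG00000040274, chr5:3341485-3531008, plus strand). It was at 721, 684, 704 and 743 CPM in DMSO and at 618, 623, 699.8 and 617 CPM in IOX5 replicates 1 to 4. IOX5 replicate 3 stood within the DMSO range and apart from the other IOX5 libraries, all of which lay below that range. Within replicate numbers 1 to 4 the log2 difference was -0.22, -0.13, -0.0087 and -0.27, so number 3 was almost level. How many of all genes tested had the same sign in all 4 pairs was not counted, for this or the other members. The log2 fold change was -0.16 (SE 0.061, edgeR adjusted p = 0.200), and the adjusted p with the block was 0.111 by edgeR. *Cdk4* (ENSMUSG00000006728, chr10:127063534-127067920, plus strand) was at 323, 329, 365 and 363 CPM in DMSO and at 304, 267, 338 and 381 CPM in IOX5 replicates 1 to 4. IOX5 replicate 2 was the lowest of the 8 and IOX5 replicate 4 the highest, and the log2 fold change was -0.097 (SE 0.107, edgeR adjusted p = 0.655). Leaving out IOX5 replicate 2 moved it to -0.016, leaving out IOX5 replicate 4 to -0.19 and leaving out DMSO replicate 4 to -0.057. The exons of *Cdk4* share 641 bases with *Tspan31* on the opposite strand, on which between 733 and 992 reads were counted. The log2 ratio of *Cdk4* to *Cdk6* differed by 0.051 between the groups (exact two-sided permutation test, p = 0.743, adjusted 0.914).

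The D cyclins, which link growth signals to CDK4 and CDK6, had log2 fold changes between -0.090 and 0.040, and none was called with or without the block. *Ccnd2* (ENSMUSG00000000184, chr6:127125162-127152193, minus strand) differed widely between replicate numbers. It was at 217, 155, 299 and 307 CPM in DMSO and at 179.7, 151, 317 and 305 CPM in IOX5 replicates 1 to 4. Numbers 3 and 4 were high and number 2 was low in both groups, and the highest library was 1.98 times the lowest within DMSO and 2.10 times within IOX5. The log2 fold change was -0.036 (SE 0.289, 95% interval -0.69 to 0.62). With the block it was -0.056 (SE 0.071, 95% interval -0.21 to 0.095, edgeR adjusted p = 0.603). Without number 1 it was 0.010, so its direction is not settled.

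*Ccnd3* (ENSMUSG00000034165, chr17:47505051-47599691, plus strand) was at 215, 234, 198 and 198 CPM in DMSO and at 198, 271, 209 and 191 CPM in IOX5 replicates 1 to 4, highest in number 2 of both groups. Its log2 fold change was 0.040 (SE 0.116, 95% interval -0.22 to 0.30), and turned to -0.084 without IOX5 replicate 2. Its exons share 361 bases with *Bysl* on the opposite strand, which was lower with the block (log2 fold change -0.35, edgeR adjusted p = 0.021). *Ccnd1* (ENSMUSG00000070348, chr7:144929931-144939925, minus strand) was counted with only 34, 32, 29 and 24 reads in the DMSO and 22, 38, 25 and 17 reads in the IOX5 libraries. At this depth its log2 fold change of -0.090 had a 95% interval from -0.73 to 0.55, and 1100 bases of its exons lie opposite *LTO1*, on which between 254 and 309 reads were counted.

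**Figure D3:**
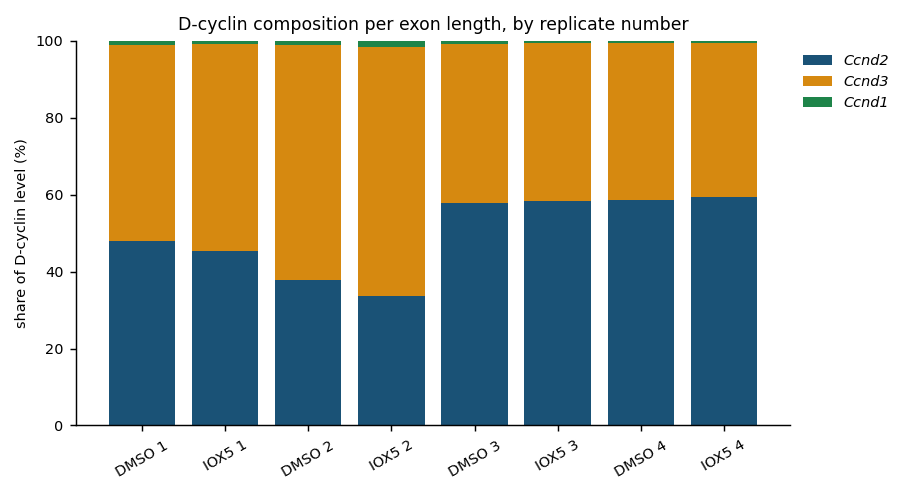
Share of each D cyclin in their summed level per kilobase of exon (y axis, percent) in each library (x axis), with libraries of the same replicate number side by side. *Ccnd2* makes up between 33.6% and 37.7% in number 2 and between 57.9% and 59.4% in numbers 3 and 4, with the replicate numbers in the same order in both groups.

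Per kilobase of exon, *Ccnd2* made up 48.0%, 37.7%, 57.9% and 58.7% of the D-cyclin level in DMSO and 45.5%, 33.6%, 58.3% and 59.4% in IOX5 replicates 1 to 4. The rest was almost wholly *Ccnd3*, as *Ccnd1* stayed between 0.574% and 1.50%. The order of the replicate numbers was the same in both groups, and *Ccnd2* exceeded *Ccnd3* only in numbers 3 and 4. Exon length bears on that order: with the longest transcript of each gene in place of all its exons, *Ccnd3* held between 50.5% and 74.0% in every library. The log2 ratio of *Ccnd2* to *Ccnd3* differed by -0.087 between the groups, against SDs of 0.58 in DMSO and 0.71 in IOX5 (exact two-sided permutation test, p = 0.8, adjusted 0.914). Summed markers of mast cells and basophils were also highest in numbers 3 and 4, with 486 and 442 CPM in DMSO and 749 and 596 CPM in IOX5, against between 126 and 252 CPM in numbers 1 and 2. Summed neutrophil markers were highest in number 2, with 1082 CPM in DMSO and 1786 CPM in IOX5. The part of these cell types in the levels of *Ccnd2* and *Ccnd3* was not tested.

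**Figure D4:**
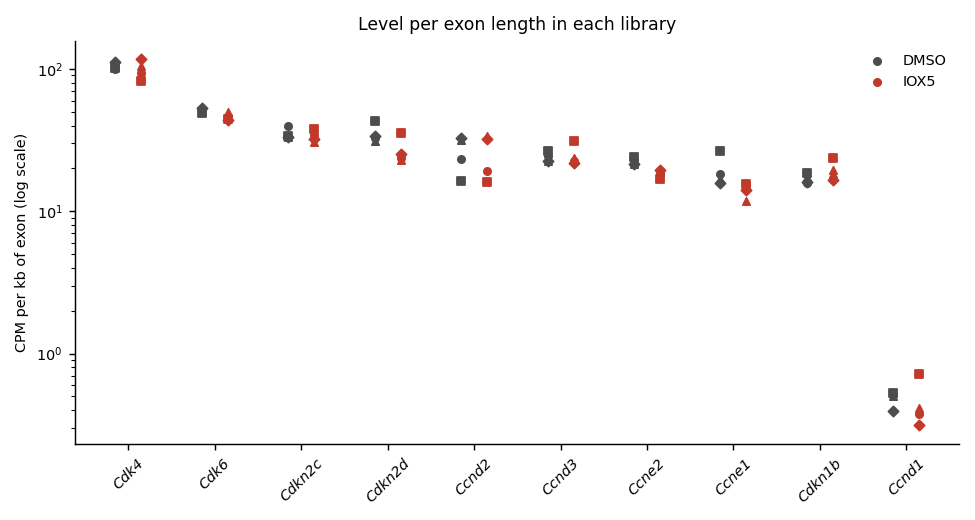
Level of each member in CPM per kilobase of exon (y axis, log scale) in each DMSO (gray) and IOX5 (red) library, with genes ordered by their DMSO mean and symbols marking replicate numbers as in the plot of CPM by library. *Cdk4* and *Cdk6* lie above all other members and *Ccnd1* below all of them in both groups.

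Ordered by level per kilobase in DMSO, *Cdk4* led with 106 ± 6.80 CPM per kb and *Cdk6* followed with 51.0 ± 1.81 (SD, n = 4 each). *Cdkn2c* and *Cdkn2d* came next at 35.1 ± 3.09 and 35.1 ± 5.27, then *Ccnd2* at 26.0 ± 7.67, *Ccnd3* at 24.1 ± 1.94, *Ccne2* at 22.4 ± 1.23, *Ccne1* at 19.3 ± 4.96, *Cdkn1b* at 17.0 ± 1.33 and *Ccnd1* at 0.48 ± 0.061 CPM per kb (SD, n = 4 each). From *Cdkn2c* down to *Cdkn1b* the ranges of neighbors overlapped, so that the order of neighbors lay within the spread. Members further apart could be separate. In DMSO the lowest *Cdkn2c* library, at 33.2 CPM per kb, lay above the highest *Ccnd2* library, at 32.6. The lowest *Ccnd3* library, at 22.6, lay above the highest *Cdkn1b* library, at 18.7. The steps from *Cdk4* to *Cdk6*, from *Cdk6* to *Cdkn2c* and from *Cdkn1b* to *Ccnd1* did not overlap. With IOX5, *Cdkn1b* at 19.2 ± 3.28 CPM per kb stood above *Ccne2* at 18.6 ± 1.27 and *Ccne1* at 14.2 ± 1.77 (SD, n = 4 each), with ranges of *Cdkn1b* and *Ccne2* that overlapped and an order that turned on the longest transcript. The ranges of the E cyclins no longer touched each other. On the longest transcript *Ccnd3* moved from the 6th to the 3rd place in DMSO, at 54.8 CPM per kb. With IOX5 it moved to place 2, at 56.3 CPM per kb beside 55.5 for *Cdk6*, so the place of *Cdk6* there depends on the length used.

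Of the members called with the block, *Ccne1* had the largest fold change, although without replicate number 2 its blocked value was -0.30 and that of *Cdkn2d* -0.44. The genes whose log2 CPM followed it most closely over the 8 libraries were *Gmppb* (r = 0.968), *Zfand5* (0.959), *1110059E24Rik* (0.953), *Vrk2* (0.951) and *Ube2d3* (0.950). These are the highest Pearson correlations among 9892 genes with a mean of at least 5 CPM, given as a description over libraries that share treatment and replicate number. Their own log2 fold changes ran from -0.27 for *Zfand5* to -0.15 for *Ube2d3* without the block.

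The genes that act next to the members were read from the same fits. Of 13 genes for RB proteins, E2F factors and their DP partners, edgeR called 1 lower without the block and 5 with it. None was called higher in either fit. Of all genes tested, edgeR called 1.25% lower without the block and 9.43% with it. DESeq2 and voom without the block called 4 lower each, where they called 602 and 610 of the 12405 genes tested lower. With the block in edgeR, *E2f2*, *E2f3*, *E2f4*, *E2f7* and *E2f8* fell, while *E2f1* and *Rb1* were not called. *E2f7*, an atypical E2F that represses transcription, was 44.3 ± 4.55 CPM (SD, n = 4) with DMSO and 32.4 ± 3.04 CPM (SD, n = 4) with IOX5 (blocked log2 fold change -0.45, adjusted p = 0.00131 by edgeR). *E2f3*, an activator, was 68.7 ± 3.98 CPM (SD, n = 4) and 53.4 ± 4.98 CPM (SD, n = 4) (blocked log2 fold change -0.36, adjusted p = 0.00277 by edgeR). Of 11 genes for CDK2, its activators and G1/S turnover factors, *Cdc25a* was called in both fits. It encodes the phosphatase that activates CDK2, and was at 106, 105, 101 and 109 CPM in DMSO and at 79.9, 73.6, 85.0 and 84.7 CPM in IOX5 replicates 1 to 4 (adjusted p = 0.0260 by edgeR). The calls of *E2f8* and *Cdc25a* without the block were lost when any DMSO library, IOX5 replicate 1 or IOX5 replicate 3 was left out. By edgeR, *Skp2*, which marks p27 for degradation, was called lower and *Cdk7* higher with the block only. *Cdk2* itself had a log2 fold change of -0.080 with the block (adjusted p = 0.448 by edgeR). Without the block, DESeq2 called 2 of these 11 genes lower and voom called 1, beside the counts over all genes given above. The call of *Cdk7* was lost with each replicate number left out.

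The CDK inhibitors outside the 10 genes went the other way from *Cdkn2d*. All 4 had positive log2 fold changes, with a median of 0.64. Without the block edgeR called 0 of them and DESeq2 and voom 2 each, and with the block edgeR called 3. Of the 12405 genes tested, DESeq2 called 489 and voom 426 higher without the block. With the block, edgeR called 11.2% higher. *Cdkn1a*, which encodes p21, was at 171, 202, 126 and 139 CPM in DMSO and at 209, 286, 267 and 258 CPM in IOX5 replicates 1 to 4. Every IOX5 library lay above every DMSO library, but the share of all genes with this pattern was not counted in this direction. The log2 fold change was 0.67 (SE 0.154, edgeR adjusted p = 0.0590 without and 0.000807 with the block). *Cdkn2a*, whose products are the INK4 inhibitor p16 and ARF, was at 5.40 ± 2.04 CPM (SD, n = 4) with DMSO and 10.8 ± 2.14 CPM (SD, n = 4) with IOX5 (edgeR adjusted p = 0.0928 without and 0.000576 with the block). *Cdkn2b*, which encodes p15, was at 2.46 ± 1.52 and 3.72 ± 1.55 CPM (SD, n = 4 each). With the block its edgeR adjusted p was 0.0424. With any replicate number left out, the blocked fit called 2 of the 4 inhibitors.

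All 5 cyclin and CDK genes of S, G2 and M phase had negative log2 fold changes, with a median of -0.27. Without the block edgeR called 0 of them and DESeq2 and voom 3 each, and with the block edgeR called 5 and DESeq2 4. Of all genes tested, DESeq2 called 4.85% lower without the block and 6.26% with it, and edgeR called 9.43% lower with the block. *Ccna2*, which encodes cyclin A2, was 278 ± 14.2 CPM (SD, n = 4) with DMSO and 212 ± 26.2 CPM (SD, n = 4) with IOX5 (edgeR adjusted p = 0.0597 without and 0.00200 with the block). *Ccnb1*, which encodes cyclin B1, was 183 ± 17.0 CPM (SD, n = 4) and 135 ± 15.6 CPM (SD, n = 4) (edgeR adjusted p = 0.0560 without and 0.000650 with the block). *Ccnb2*, *Ccnf* and *Cdk1* had blocked log2 fold changes between -0.27 and -0.21. Without replicate number 3 the blocked fit called 2 of the 5 and without number 1 it called 3. Of 6 upstream regulators of the D cyclins and p27, *Gsk3b*, a kinase that marks D cyclins for turnover, was lower with the block (log2 fold change -0.21, adjusted p = 0.0319 by edgeR), and that call was lost without number 1, 3 or 4.

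**Figure D5:**
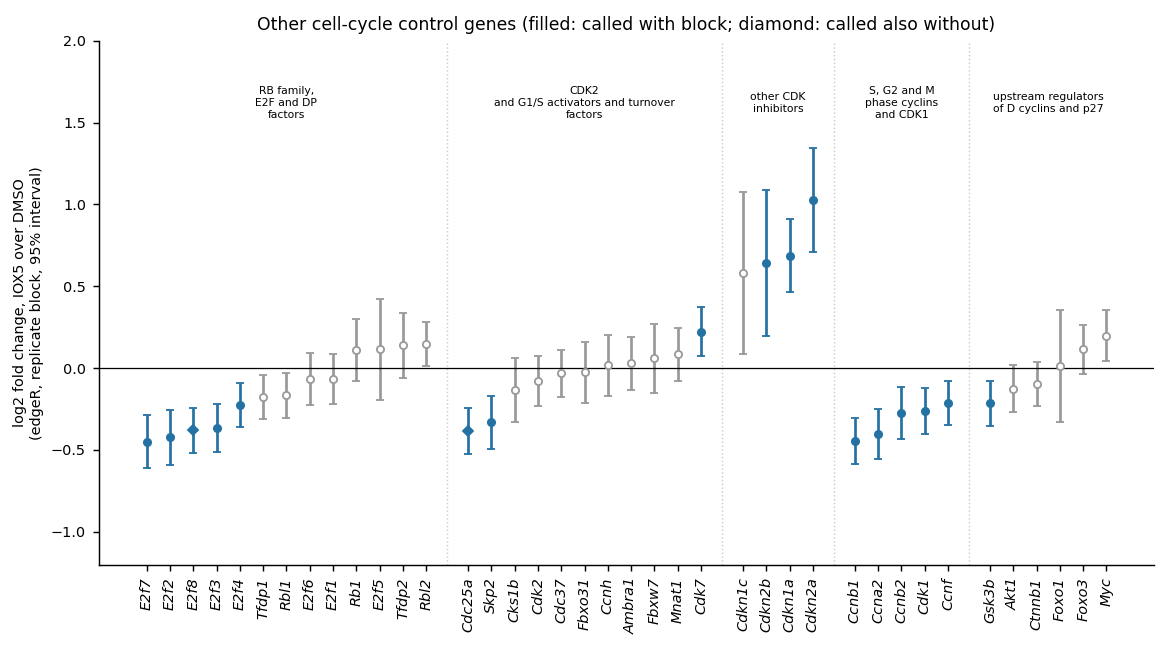
Log2 fold change, IOX5 over DMSO, by edgeR with the replicate block (y axis) for the other cell-cycle genes, grouped by list (x axis). Bars are 95% intervals, filled symbols were called with the block and diamonds also without it. The 5 genes of S, G2 and M phase lie below 0, and the 4 other CDK inhibitors lie above it.

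Many genes fixed as markers of other blood cell types were also higher with IOX5 in the blocked fit. So were 3 of the 7 leukemic progenitor markers (*Kit*, *Cd34*, *Itgam*), and 0 of those 7 were lower. Without the block, edgeR called only the megakaryocyte gene *Vwf* of these lists. With the block, 5 of 6 neutrophil markers, 5 of 5 mast cell and basophil markers, 3 of 4 tested megakaryocyte markers, 2 of 5 tested macrophage markers and 1 of 4 tested erythroid markers were called higher, and 0 of these were called lower. Of all genes tested, 11.2% were called higher and 9.43% lower in that fit. The summed macrophage markers ran from 148 to 206 CPM in DMSO and from 225 to 500.2 CPM in IOX5, and the summed megakaryocyte markers from 25.9 to 69.95 CPM and from 84.9 to 139 CPM, without overlap, with *Gp1bb* at 0 in every library. How often genes or sums of genes separate in this direction was not counted. The summed neutrophil markers ran from 271 to 1082 CPM in DMSO and from 377 to 1786 CPM in IOX5, and overlapped. The part of these cell types in the levels of the E cyclins, *Cdkn2d* and the other inhibitors was not tested.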

How the data were processed

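Poly(A) RNA was made into directional libraries and read from a single end. The authors trimmed adaptors with cutadapt 1.18, mapped reads to GRCm38 with HISAT2 2.2.1 and counted them per Ensembl gene with HTSeq 2.0.1. The deposited values are raw counts per gene and library. The release of the annotation used for counting and how the counting treated strand are not given in the sources used here. Lines of reads not assigned to a gene (between 20.6% and 22.6% per library) were left out. Of 54838 genes, 54723 matched GENCODE M21. In R 4.3.3, edgeR 4.0.16 filtered genes (filterByExpr), applied TMM scaling and compared IOX5 with DMSO over all 8 libraries by its quasi-likelihood test, with Benjamini-Hochberg adjustment over the 12405 genes tested and calls at an adjusted p under 0.05. Log2 CPM used a prior count of 2. Deviations from group means of same-numbered libraries correlated at 0.758, 0.744, 0.732 and 0.636 for numbers 1 to 4. The highest correlation with a different number was 0.212 for numbers 1 and 2 and 0.685 for numbers 3 and 4. Number 4 thus matched a different number more closely than its own, so the pairing is least clear there. The numbers were taken to pair the libraries, and a block on the number was fitted as an alternative. What the numbers stand for is not stated. Other alternatives were DESeq2 1.42.0, voom of limma 3.58.1 with sample quality weights, other scaling and filters, thinning to the smallest library and leaving out libraries or pairs. Ratios were compared by exact permutation. Levels per kilobase used the union of annotated exons. The edgeR steps were tested on simulated data. The 10 members and all gene lists were chosen with earlier results of these data known. All members are named, and of each pathway list the genes called with or without the block were eligible for naming. *E2f1*, *Rb1* and *Cdk2* were named after their values were seen. Plots used matplotlib 3.10.9.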

Additional observations from a re-analysis of the deposited data

Results flagged for a closer look

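In 20 groups of 4 libraries (10 genes in 2 groups), 2 held a library far from the other 3 by Dixon's test, where chance alone is expected to give about 1 in 20. *Cdk6* was at 699.8 CPM in IOX5 replicate 3, against between 617 and 623 CPM in the other IOX5 libraries. *Cdkn2c* was at 107 CPM in DMSO replicate 1, against between 89.0 and 91.3 CPM in the other DMSO libraries.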

How the results depend on the processing

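The count of members called lower was 0 by edgeR without a block, 3 with the replicate block, 1 by DESeq2 and 2 by DESeq2 with the block, and from 0 to 3 with a single library or pair left out. It stayed at 0 with limma's voom, with RLE or upper-quartile scaling, without a filter, with at least 10 counts required in every library and with thinning to the smallest library. With a single library left out, the log2 fold change changed sign for *Ccnd1* (-0.39 to 0.050), *Ccnd2* (-0.21 to 0.13), *Ccnd3* (-0.084 to 0.096) and *Cdkn2c* (-0.12 to 0.0097). It also did so in the blocked fit without number 1 for *Ccnd2* (0.010) and without number 2 for *Ccnd3* (-0.032), and it kept its sign for the other 6 members in every alternative. The log2 ratio differences also changed sign for *Ccnd1* to *Ccnd2* (-0.50 to 0.21), *Ccnd2* to *Ccnd3* (-0.34 to 0.22) and *Cdk4* to *Cdk6* (-0.050 to 0.13). The cause of these shifts was not tested.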
